A study of Homo sapiens with 7 samples.

Results

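Peaks of RNA polymerase II phosphorylated on Thr4 of its carboxyl-terminal domain (pThr4) were examined at 10 human heat shock protein and chaperone genes: HSPA1A, HSPA1B, HSPA5, HSPA8, HSPA9, HSP90AA1, HSP90AB1, HSPD1, HSPE1 and DNAJB1. The genes were listed by name, with earlier results of these data known, out of 19630 protein-coding genes of the RefSeq annotation (GRCh38.p14) that lie on chromosomes 1 to 22 or X and have a known strand. Each gene was taken from its outermost start to its transcription end site (TES, the outermost annotated end) and extended by 10 kb beyond the TES. All 10 genes were found in the annotation and all 10 were searched, with no filter on low values.

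Nuclear lysate of HEK293 cells, an established human embryonic kidney line, was divided into matched aliquots. These were incubated in vitro with active SCP1 (SCP1_WT, 3 libraries) or with the catalytically inactive D96A form (SCP1_D96A, 3 libraries), and pThr4 chromatin was then immunoprecipitated with antibody clone 6D7 and sequenced. SCP1 is a phosphatase of the polymerase tail that removes the phosphate from Ser5, and the comparison asks where pThr4 lies beside a phosphorylated Ser5 that hides it from the antibody. Both groups come from the same line, received a phosphatase protein and were fixed with formaldehyde, the labels name no heat or other stress treatment, and the phosphatase acted on lysate and not in living cells. No peak list of the IgG control was analysed here.

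Heat shock proteins bind unfolded proteins and help them fold or assemble. HSP70 proteins hold short exposed stretches of a client in an ATP-dependent cycle started by J-domain co-chaperones, HSP90 acts on clients that are already partly folded, and the chaperonin of mitochondria encloses a protein in a barrel closed by a lid. The inducible genes are switched on by heat shock factor 1, which binds repeated heat shock elements in their promoters. Past the TES, polymerase goes on transcribing while the RNA is cleaved and polyadenylated, and pThr4 is known for its place in this termination zone.

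The lists differed in length before any gene was looked at. With active SCP1 they held 12625, 6680 and 36892 peaks (replicates 1, 2 and 3), and with inactive SCP1 2466, 1163 and 2699. Every list was limited at the same q-value, and the lowest listed -log10 p-value was 3.50, 3.79 and 3.08 with active SCP1 against 4.23, 4.6 and 4.20 with inactive SCP1, so a weak peak could enter a long list and not a short one. The numbers of reads are unknown, and the read depth, the enrichment and the treatment cannot be told apart as sources of list length. Active replicate 3 stood apart with the longest list, and the peak names of both replicates 3 carry another number than those of replicates 1 and 2, so key values are also given without it.

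Most pThr4 peaks of the chaperone genes reached past the gene ends in both groups. In all, 60 peaks fell in the 10 genes with their downstream 10 kb, 41 with active and 19 with inactive SCP1. Of these, 46 reached into the 10 kb after a TES, 5 lay at a promoter (within 1000 bp of a start), and 9 lay in the gene body alone. An overlap of at least 1 bp was enough, so peaks that span a TES are included. At HSPA5 only 25 of 288 bp lay after it. The same share was not computed over all genes, and the 10 kb is a large part of the window of a short gene. All 8, 3 and 8 peaks of the inactive libraries reached into the region after the TES, whereas 8 of 11, 7 of 9 and 12 of 21 did so in the active libraries. The peaks were 244 to 5775 bp wide and their fold enrichment over the caller's background ran from 2.71 to 5.60, with a median of 3.51. Fold enrichment describes a peak within its own library, and with the depth unknown the values are set side by side here without a test between libraries.

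**Figure D1:**
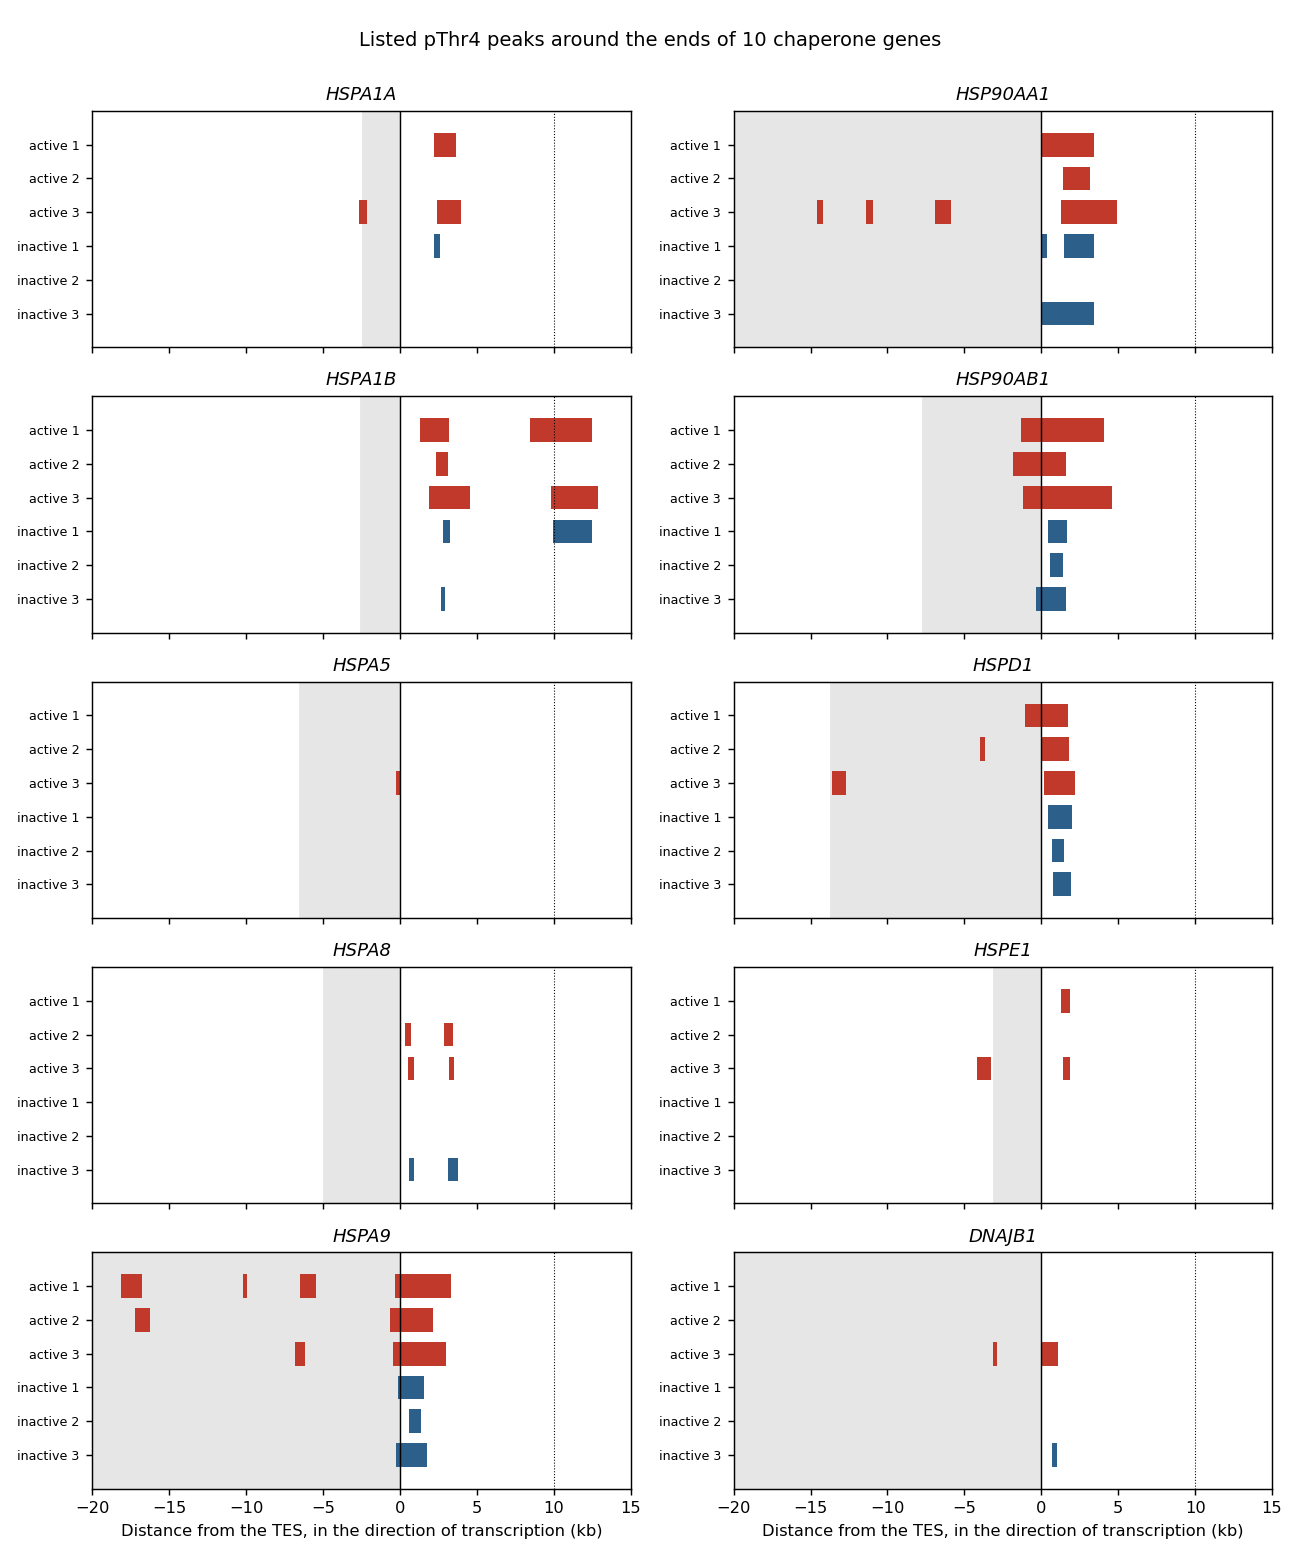
Peaks of the 3 active (red) and 3 inactive (blue) libraries that overlap the gene, its promoter or the 10 kb after its TES, for each of the 10 genes, as distance in kb from the TES (vertical line) in the direction of transcription; grey marks the gene and the dotted line the limit of 10 kb. Most bars lie across or just right of the TES in both colours, and the active bars are the wider ones at HSP90AB1 and HSPA9. In active replicate 3, 2 peaks farther than 20 kb upstream, at HSP90AA1 and DNAJB1, are outside the plotted range.

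A peak was listed for 7, 6 and 10 of the 10 genes with active SCP1 and for 6, 3 and 7 with inactive SCP1, and the counts for the 10 kb after the TES alone were the same. The groups overlapped. Their means were 7.67 ± 2.08 and 5.33 ± 2.08 genes (SD, n = 3), a difference of 2.33 (two-sided exact permutation test, 20 possible assignments of the libraries, p = 0.5; the smallest p that 3 against 3 libraries allow is 0.1). Between libraries of the same replicate number the active count was the higher by 1, 3 and 3 genes (exact sign-flip permutation, p = 0.25, the smallest that 3 pairs allow). Over all 19630 genes, 41.2%, 29.7% and 65.4% had a peak in the same kind of window after treatment with active SCP1. The inactive libraries had 15.9%, 8.01% and 16.9%. The windows of the chaperone genes were shorter, with a median of 17090.5 bp against 34806.5 bp over all genes.

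The bases under peaks differed more than the number of genes. With overlapping windows merged, peaks covered 23.2, 12.9 and 27.3 kb with active SCP1 and 7.66, 2.40 and 10.1 kb with inactive SCP1. Every active library was above every inactive one (21.1 ± 7.43 against 6.72 ± 3.93 kb, SD, n = 3, a difference of 14.4 kb, two-sided exact permutation p = 0.1, the smallest possible). The difference was 13.0 kb in replicates 1 and 2 alone. It moved with list length and was 2.72 kb when each list was reduced to its 1163 strongest peaks (exact permutation p = 0.2).

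Per gene, the 10 kb after the TES held a mean of 1.79, 0.906 and 2.00 kb under peaks at the chaperone genes with active SCP1 and 0.751, 0.240 and 0.946 kb with inactive SCP1. The same means over all protein-coding genes were 0.603, 0.374 and 1.15 kb, and 0.150, 0.0690 and 0.159 kb. The median chaperone gene had 1594, 864 and 1770 bp there in the active libraries and 417.5, 0 and 632.5 bp in the inactive ones, while the median over all genes was 0 bp in each of the 6 libraries. These levels describe the listed genes and were not tested against other genes.

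Coverage around the TES was greatest a short way past it. In active replicate 1, 6 of the 10 genes were under a peak at 1.5 kb past the TES, the most at any position. In active replicate 2 the most was 4 genes, at 0.5 and again at 1.5 kb, and in active replicate 3 it was 5 genes, reached at 8 positions from 0.75 to 3.5 kb. The inactive libraries had at most 4 genes at 1.5 kb, 3 genes from 0.75 to 1.25 kb, and 5 genes at 0.75 kb. Over all genes the maximum lay at 1, 0.75 and 1 kb with 12.9%, 9.05% and 20.2% of genes covered in the active libraries, and at 0.75 kb with 4.28%, 2.09% and 4.46% in the inactive libraries. The first position at the maximum lay between 0.5 and 1.5 kb in every library, in both gene sets.

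**Figure D2:**
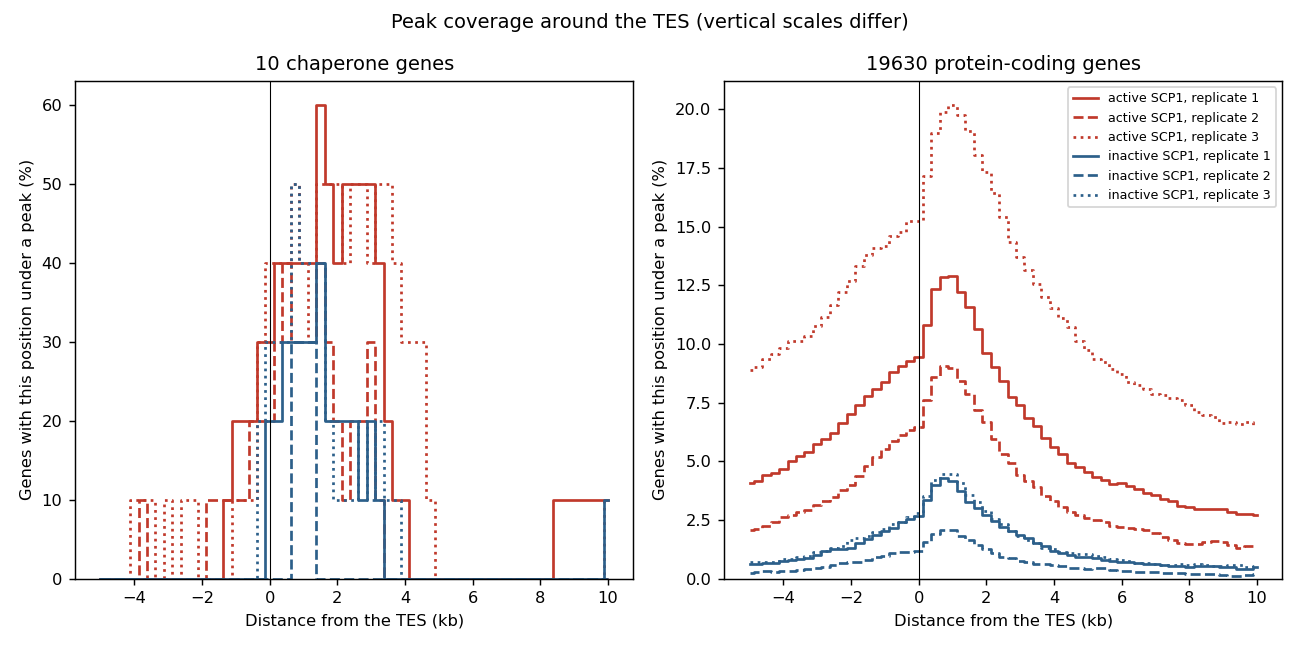
Percent of genes with each position under a peak, against distance from the TES in kb, for the 10 chaperone genes (left) and all 19630 genes (right); red lines are active and blue lines inactive libraries, and the vertical scales differ. Every line first reaches its maximum between 0.5 and 1.5 kb past the TES, at 3 to 6 of the 10 chaperone genes, and the chaperone line of active replicate 3 returns to its maximum as far as 3.5 kb.

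A peak in all 6 libraries was listed for 3 of the 10 genes, HSPA9, HSP90AB1 and HSPD1, against 1354 of 19630 genes overall (6.90%). In each of the 3 a peak reached past the TES in all 6 libraries, which held for 5.11% of all genes. HSPA1B and HSP90AA1 had a peak in 5 libraries, every one but inactive replicate 2, the shortest list. HSPA1A and HSPA8 had one in 3 libraries, HSPE1 and DNAJB1 in 2, and HSPA5 in 1. None of the 10 had a peak in the 3 active libraries but no inactive one, a pattern that 8.87% of all genes showed.

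The bases under peaks were higher in each active than in each inactive library at 4 of the 10 genes, HSP90AB1, HSPA9, HSPD1 and HSPA1B, against 23.2% of all genes. The opposite order was found at 0 of the 10, and at 0.00509% of all genes. Among the genes with a peak in all 6 libraries, 80.7% had the active libraries above, as had all 3 such chaperone genes. The mean of the active libraries was the higher one at all 10 genes, against 67.1% of all genes, and at HSPA5 and DNAJB1 the active bases came from replicate 3 alone. A gene with no peak in any library cannot show either order. Such genes were 32.6% of all genes and 0 of the 10, so the 23.2% and the 67.1% understate the shares among genes with a peak. Nearly every gene with a peak had the higher mean with active SCP1, so the 10 genes do not stand out in this. In 1 gene with 3 against 3 libraries p cannot fall under 0.1, so no single gene can pass a threshold of 0.05.

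**Figure D3:**
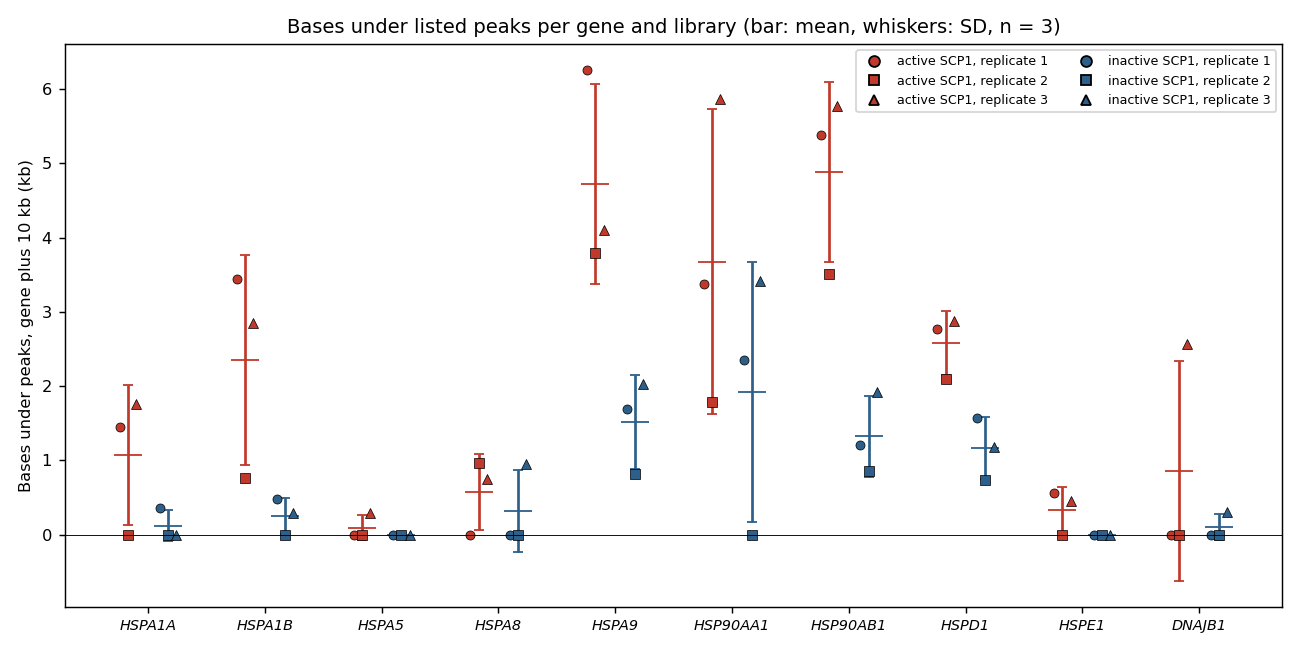
Bases under peaks in each gene and its downstream 10 kb (kb) for every library, with the mean (horizontal bar) and SD (whiskers, n = 3) of the active (red) and inactive (blue) libraries. The colours separate at HSPA1B, HSPA9, HSP90AB1 and HSPD1 and overlap at the other 6 genes, 5 of which have active libraries at 0.

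Of the HSP90 genes, HSP90AB1, which encodes the constitutive cytosolic HSP90, had the strongest peaks of the family. Peaks spanned its TES with active SCP1, at chr6:44252568-44257949, chr6:44252014-44255520 and chr6:44252682-44258456, from 1.87 kb before to 4.57 kb after it at the extremes. Their fold enrichment was 5.17, 5.40 and 5.38 and their -log10 p-value 11.3, 11.7 and 13.1. With inactive SCP1 the peaks lay at chr6:44254343-44255544, chr6:44254469-44255325 and chr6:44253550-44255474, with fold enrichments of 4.19, 4.15 and 5.60 and -log10 p-values of 7.07, 7.44 and 11.0. The peak of inactive replicate 2 lay within each of the other 5, the nearer ends of the 6 peaks were 4071 to 6526 bp from the nearest start, and the fold enrichments of the groups overlapped.

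The active peaks at HSP90AB1 were wider. They covered 5.38, 3.51 and 5.78 kb against 1.2, 0.857 and 1.93 kb, a difference of 3.56 kb (exact permutation p = 0.1). By p-value they ranked 184, 114 and 186 in their lists and the inactive peaks 408, 227 and 94, so the ranks overlapped. All 6 peaks overlapped SLC35B2, a nucleotide sugar transporter gene at chr6:44254101-44257890, and the peak of active replicate 3 also reached NFKBIE. The signal therefore cannot be given to HSP90AB1 alone.

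HSP90AA1, the inducible HSP90 gene, had peaks after its TES in 5 libraries, between 0.04 kb before and 4.94 kb after it. The bases under peaks were 3.38, 1.78 and 5.86 kb with active and 2.35, 0 and 3.41 kb with inactive SCP1, and the groups overlapped (exact permutation p = 0.5). The strongest peak had a fold enrichment of 3.47, 3.26 and 3.56 with active SCP1 and of 3.78 and 3.97 in inactive replicates 1 and 3. In active replicate 3 alone, 4 further peaks lay upstream of the TES, and 2 of them covered a start each. These were at chr14:102086594-102087664 and at chr14:102139534-102140648, and the second also overlapped WDR20.

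In the mitochondrion, HSPA9 is the HSP70 that draws in and folds imported proteins. A peak crossed or followed its TES in all 6 libraries, with fold enrichments of 3.47, 3.46 and 4.17 with active and 3.64, 3.51 and 3.75 with inactive SCP1. The fold enrichments overlapped. The widest was chr5:138550478-138554083 in active replicate 1 and the narrowest chr5:138552366-138553175 in inactive replicate 2. Peaks in the gene body, 3534 to 15118 bp from the start, were listed 3, 1 and 1 times in the active libraries and in none of the inactive ones. In sum 6.26, 3.79 and 4.10 kb were covered with active and 1.70, 0.810 and 2.03 kb with inactive SCP1 (a difference of 3.20 kb, exact permutation p = 0.1).

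HSPD1, which encodes the barrel-forming HSP60, and HSPE1, which encodes its lid HSP10, lie head to head on chromosome 2. HSPD1 had a peak across or just past its TES in all 6 libraries, between 1.03 kb before and 2.20 kb after it. The fold enrichment was 3.91, 3.77 and 5.04 with active and 3.68, 3.51 and 4.0 with inactive SCP1, with -log10 p-values of 7.87, 6.99 and 12.4 against 6.12, 6.19 and 7.33. Peaks covered 2.77, 2.10 and 2.88 kb against 1.58, 0.736 and 1.18 kb, which do not overlap (a difference of 1.42 kb, exact permutation p = 0.1). No other protein-coding gene overlapped these peaks.

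HSPE1 gave another picture from its neighbour. A single weak peak 1.31 to 1.87 kb after its TES was listed in active replicates 1 and 3, with fold enrichments of 3.10 and 2.82, and in none of the inactive libraries. It covered 0.557 and 0.457 kb and ranked at 70.7% and 81.1% of its list, where 100% is the weakest peak. The peak lay inside HSPE1-MOB4, a readthrough gene that continues past the HSPE1 TES. Its -log10 p-value was 4.11 and 3.42, under the lowest value in any inactive list (4.20). With the depth unknown, a p-value does not carry over between libraries. Why the inactive lists lack this peak was not tested.

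Of the cytosolic HSP70 genes, HSPA1A and HSPA1B encode nearly the same heat-inducible protein and lie in tandem on chromosome 6, while HSPA8 encodes the constitutive HSC70. Reads from the near-identical parts of HSPA1A and HSPA1B can be placed at either gene, and how such reads were filtered is not given in the sources used here. The peaks after both genes lay beyond the transcribed copies, but whether the sequence there is also shared between the genes was not examined. At HSPA1A a peak 2.21 to 3.95 kb after the TES was listed in active replicates 1 and 3 (fold enrichment 3.19 and 3.90) and inactive replicate 1 (3.76). It lay at chr6:31820364-31821891 in active replicate 3. Peaks covered 1.45, 0 and 1.76 kb against 0.358, 0 and 0 kb, and the groups overlapped (exact permutation p = 0.4).

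HSPA1B had a first peak between 1.28 and 4.56 kb after its TES in the 3 active libraries and in inactive replicates 1 and 3. Its fold enrichment was 2.96, 2.71 and 2.80 against 3.02 and 3.23, so the inactive values were the higher ones. A second peak was listed near the 10 kb limit, at the end of the lncRNA gene SNHG32 (chr6:31834916-31839761). It overlapped that gene in active replicate 1, as chr6:31838702-31842746, and lay beyond its end in the other 4 libraries that listed it. It entered the window by 1553 bp in active replicate 1, 196 bp in active replicate 3 and 30 bp in inactive replicate 1, and lay 202 bp outside it in active replicate 2 and 271 bp outside in inactive replicate 3. With both peaks, 3.45, 0.761 and 2.85 kb were covered with active and 0.477, 0 and 0.285 kb with inactive SCP1 (a difference of 2.10 kb, exact permutation p = 0.1).

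HSPA8 carried a pair of narrow peaks, 0.351 to 0.920 kb and 2.88 to 3.76 kb after its TES. Both were listed in active replicates 2 and 3 and in inactive replicate 3, and neither in the other 3 libraries. The farther peak had fold enrichments of 4.0, 3.82 and 4.23 in these libraries and the nearer one 3.31, 2.92 and 4.04, with the inactive library highest at both. Peaks covered 0, 0.967 and 0.750 kb with active and 0, 0 and 0.955 kb with inactive SCP1 (exact permutation p = 0.7).

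HSPA5, the HSP70 of the endoplasmic reticulum, had the least signal. Its only peak, chr9:125234828-125235115, lay across the TES in active replicate 3, with a fold enrichment of 3.12 and a width of 288 bp. DNAJB1, the J-domain partner of the inducible HSP70, had a peak in both replicates 3, across its TES with active SCP1 (chr19:14513668-14514796) and 0.686 to 0.995 kb past it with inactive SCP1 (chr19:14513774-14514083). The fold enrichment was 3.25 with active and 4.15 with inactive SCP1. Active replicate 3 added a peak near a start and another inside TECR, which overlaps the longest DNAJB1 transcript.

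**Figure D4:**
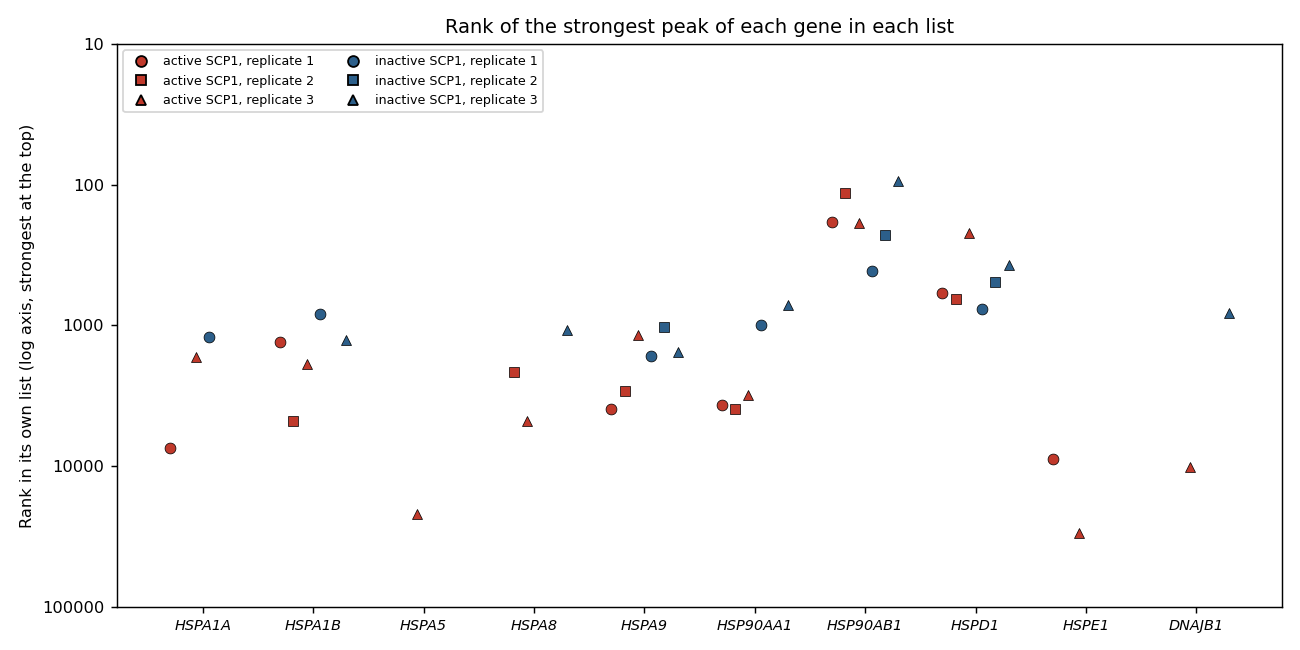
Rank by p-value of the strongest peak of each gene within its own list, on a log axis with rank 10 at the top, for the active (red) and inactive (blue) libraries; a missing point is a library with no peak. HSP90AB1 ranks between 94 and 408 and HSPD1 between 219 and 759 in the 6 lists, with the colours mixed, and HSPE1 ranks at 8925 and 29913.

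Promoter peaks were seen in active replicate 3 alone. There, 5 of the 10 genes (HSPA1A, HSPD1, HSPE1, HSP90AA1 and DNAJB1) had a peak within 1000 bp of a start, against 0 in each of the other 5 libraries. Over all genes, 7.83%, 4.96% and 21.6% had a promoter peak with active and 2.45%, 0.948% and 2.77% with inactive SCP1. A promoter peak in active replicate 3 and in no other library was found for 14.0% of all genes, and one in the 3 active libraries but no inactive one for 1.53% and for 0 of the 10. The difference of means was 1.67 genes (two-sided exact permutation p = 1), and 0 without active replicate 3.

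These promoter peaks were weak. HSPD1 and HSPE1 shared chr2:197499296-197500163, which covers the inner start of HSPD1 and lies 216 bp from the start of HSPE1, with a fold enrichment of 2.93. The peak of HSPA1A was chr6:31815256-31815776 (2.80) and also touched the neighbouring HSPA1L. Those of HSP90AA1 had 3.14 and 3.34 and that of DNAJB1, chr19:14517624-14517893, had 3.14. They ranked between 23.8% and 79.8% of their list, and 0 of them remained at a -log10 q-value of at least 2.

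The promoters themselves are shown because heat shock elements are known from promoters of inducible genes and because some promoter windows lay under the promoter peaks while others did not. RefSeq windows of 300 bases (250 before to 50 after a start, GRCh38.p14) were matched for all 10 genes, 16 windows in all. The heat shock element was searched as GAANNTTC or TTCNNGAA, which read the same on both strands and may overlap each other, and the TATA box as TATAAA on the strand of the gene. Each match joins 2 units, GAA and TTC, and is called an element here. A longer run of such units therefore counts more than once, and the counts are of matches and not of separate binding sites. An element was found in 9 of the 16 windows, at 8 of the 10 genes (56.3% of windows), against 13.5% of all 35116 windows. The genes without one were HSPE1 and HSPA5, and the constitutive HSPA8 and HSP90AB1 had matches, so the element did not mark the inducible genes alone. The TATA box in this exact form was found in 2 windows, those of HSPA1A and HSPA1B, and in 7.33% of all windows. Similar letters, such as tatataag in the HSP90AA1 window, were not counted, so a window without a match need not lack a TATA box. Capitals mark the matches in the 5 windows below, all of which hold an element, each given 5′ to 3′ on the strand of its gene.

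HSPA1A, chr6:31815293-31815592, plus strand: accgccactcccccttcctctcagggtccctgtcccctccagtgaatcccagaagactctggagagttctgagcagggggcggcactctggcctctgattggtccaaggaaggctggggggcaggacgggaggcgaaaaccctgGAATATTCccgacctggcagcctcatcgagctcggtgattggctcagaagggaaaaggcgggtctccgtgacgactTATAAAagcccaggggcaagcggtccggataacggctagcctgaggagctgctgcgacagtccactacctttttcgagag

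HSPA1B, chr6:31827488-31827787, plus strand: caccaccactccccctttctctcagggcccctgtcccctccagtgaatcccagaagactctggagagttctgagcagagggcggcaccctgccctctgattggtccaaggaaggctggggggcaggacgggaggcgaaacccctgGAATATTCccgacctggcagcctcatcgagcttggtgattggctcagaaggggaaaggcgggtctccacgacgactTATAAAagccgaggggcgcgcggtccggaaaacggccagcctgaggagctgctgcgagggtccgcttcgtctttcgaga

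HSP90AA1, chr14:102086995-102087294, minus strand: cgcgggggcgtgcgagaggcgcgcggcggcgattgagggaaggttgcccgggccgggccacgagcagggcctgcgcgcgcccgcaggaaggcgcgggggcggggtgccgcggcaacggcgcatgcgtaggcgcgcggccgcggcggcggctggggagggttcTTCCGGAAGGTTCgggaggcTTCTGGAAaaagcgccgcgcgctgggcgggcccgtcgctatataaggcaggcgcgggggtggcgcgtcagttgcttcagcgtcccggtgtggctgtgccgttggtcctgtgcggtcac

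HSP90AB1, chr6:44247693-44247992, plus strand: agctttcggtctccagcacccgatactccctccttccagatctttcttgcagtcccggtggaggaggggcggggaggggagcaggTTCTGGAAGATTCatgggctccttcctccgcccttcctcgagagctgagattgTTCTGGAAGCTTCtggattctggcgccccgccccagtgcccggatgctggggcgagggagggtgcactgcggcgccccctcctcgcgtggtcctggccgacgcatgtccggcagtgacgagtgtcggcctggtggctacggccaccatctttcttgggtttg

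HSPD1, chr2:197499791-197500090, minus strand: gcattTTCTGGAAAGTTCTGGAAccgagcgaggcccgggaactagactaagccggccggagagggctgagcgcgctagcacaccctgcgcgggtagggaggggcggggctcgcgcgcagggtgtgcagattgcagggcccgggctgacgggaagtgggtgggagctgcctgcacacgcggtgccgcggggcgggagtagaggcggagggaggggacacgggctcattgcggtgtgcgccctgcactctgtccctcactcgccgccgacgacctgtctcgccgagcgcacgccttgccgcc

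HSPA1A and HSPA1B have 1 heat shock element each, beginning 106 and 105 bases before the start, and a TATA box 30 and 29 bases before it. Their windows are identical at 277 of 301 aligned columns (92.0%), with 2 gaps. A promoter peak was listed at HSPA1A in active replicate 3 and at HSPA1B in no library. It was weak, with a fold enrichment of 2.80 and a rank at 74.2% of its list. Reads from such near-identical sequence can be placed at either gene, so this cannot be read as a difference between the promoters. HSP90AA1 has 3 matches, beginning 88, 83 and 68 bases before the start, and the first and second overlap in 1 run. HSPD1 has 3 matches at 245, 240 and 235, which overlap in 1 run. HSP90AB1 has 4 matches, at 165, 160, 112 and 107, in a window without a peak in any library. There the match at 165 overlaps that at 160, and the match at 112 overlaps that at 107.

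Of the 16 windows, 6 overlapped a peak of active replicate 3, and 4 of these held a heat shock element. At DNAJB1 the peak, chr19:14517624-14517893, met only the edge of the window, chr19:14517888-14518187. It did not reach the element, which begins 1 base after the start at 14517937. An overlap with a window is therefore not always an overlap with its element. The other 5 windows with an element had no peak. A match is a description of letters and not of binding.

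The number of genes with a peak depended on how the lists were made comparable, as the plot of counts by the form of the lists shows. At a -log10 q-value of at least 2, 5, 3 and 7 genes had a peak with active and 4, 2 and 5 with inactive SCP1. Where every list was limited to peaks with a -log10 p-value of 6 or more, the counts were 3, 2 and 5 against 2, 2 and 4. With the 1163 strongest peaks of each library the direction turned, with 2, 2 and 2 genes against 4, 3 and 5, a difference of -2 genes (two-sided exact permutation p = 0.1, the smallest possible). Over all genes the shares in these equal lists were 9.49%, 9.20% and 9.91% against 8.88%, 8.01% and 8.99%.

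The genes behind this turn can be named. In the 1163 strongest peaks, HSP90AB1 and HSPD1 were present in all 6 libraries, and none of the other 8 genes was present in an active one. HSPA1B and HSP90AA1 were added in inactive replicate 1, HSPA9 in inactive replicate 2, and HSP90AA1, DNAJB1 and HSPA8 in inactive replicate 3. In active replicate 3 the peak of HSPA9 was at rank 1173, just outside.

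**Figure D5:**
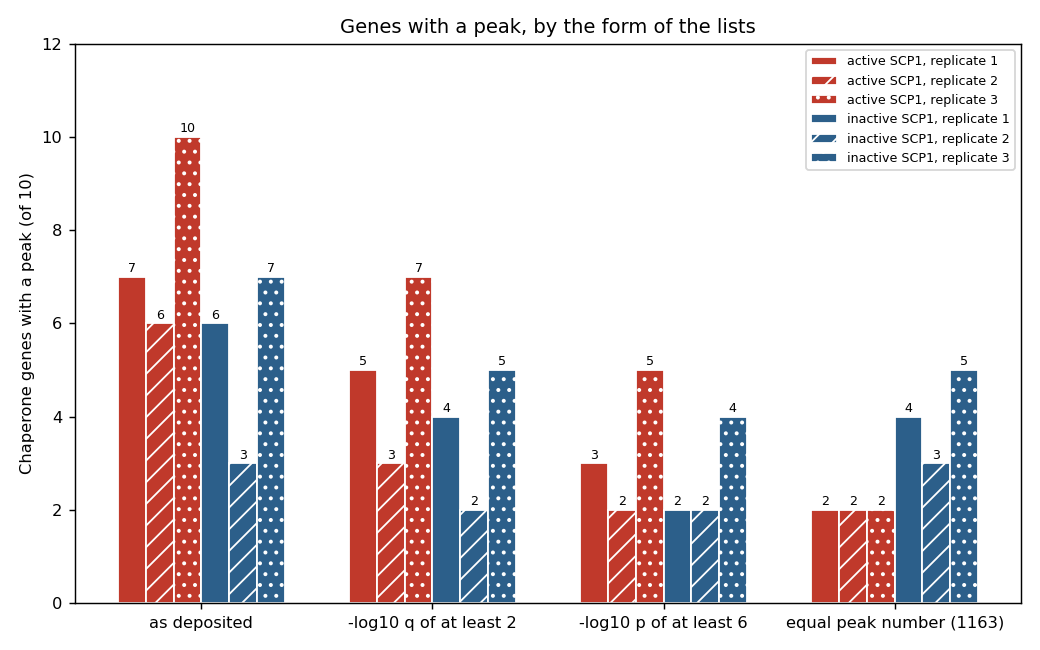
Number of the 10 chaperone genes with a peak in each library, for the lists as deposited, at a -log10 q-value of 2 or more, at a -log10 p-value of 6 or more and with the 1163 strongest peaks of each library. The active bars (red) reach 10 in the lists as deposited and stand at 2 in each library at equal number, under the inactive bars (blue) of 3 to 5.

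A wider list of 82 other chaperones, co-chaperones and heat shock factors, of which 81 were matched, gave the setting. A peak in all 6 libraries was found for 14 of the 81 (17.3%) and a peak in the 3 active libraries but no inactive one for 13 (16.0%), where all genes had 6.90% and 8.87%. The bases under peaks were higher in every active library at 41 (50.6%, against 23.2% of all genes), with the opposite order at 0, and 10 genes had no peak in any library, as had 32.6% of all genes. A promoter peak in the 3 active libraries but no inactive one was found at 1 of the 81 (1.53% of all genes). Neither list was tested against other genes.

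The strongest shared peaks of the wider list were in the windows of PTGES3, which encodes the HSP90 co-chaperone p23, STUB1, a ubiquitin ligase that works with HSP70, and HSF1, heat shock factor 1. Their lowest fold enrichment over the 6 libraries was 5.27, 4.78 and 4.77. HSF1 had 12.3, 10.8 and 16.3 kb under peaks with active and 7.31, 4.17 and 6.46 kb with inactive SCP1. Genes with a peak in the active libraries alone were led by PFDN5, a prefoldin subunit, SIL1, a nucleotide exchange factor of the endoplasmic reticulum HSP70, and DNAJA1, a cytosolic J-domain protein. Their lowest fold enrichment over the active libraries was 4.39, 3.86 and 3.85. SIL1, a long gene at chr5:138946724-139198368, had 6.83, 1.56 and 5.17 kb under peaks. A longer window has more room for peaks, and window length was not taken into account for the wider list. Overlap of these peaks with other genes was not examined for the wider list, so the signal cannot be given to the named genes alone.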

How the data were processed

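The 10 genes, the wider list of chaperones and the windows were chosen with earlier results of these data known. Per the labels, chromatin was fixed with 1% formaldehyde and sonicated, and libraries were sequenced as paired-end reads; the submitters' processing notes name FastQC, cutadapt 4.6, Bowtie2 2.5.2 and the build hg38. The caller, its control and its read filters are not given in the sources used here. The authors deposited 1 list of broad peaks per library, in the layout of MACS, with no pooling of replicates. In these deposited lists column 7 is the ratio (fold enrichment) and columns 8 and 9 are the -log10 p-value and -log10 q-value, whose lowest values, just above 1, correspond to a q-value limit of 0.1. The deposited score column was not used.

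Peaks on chromosomes 1 to 22 and X were intersected (at least 1 bp) with RefSeq GRCh38.p14 genes in Python 3.11.15 with pandas 2.3.3 and numpy 2.4.6. Strand came from the RefSeq promoter table or, where it had none, from GENCODE by gene name, with no GENCODE coordinates used. Both sources gave the same strand for 99.6% of 15261 genes, and 19630 of 19974 protein-coding genes (98.3%) had a strand. Promoters were 1000 bp on either side of any start. Ranks follow the p-value. All 10 genes are named, and of the wider list the 3 with the highest lowest fold enrichment in each class. Group means were compared by two-sided exact permutation over the 20 assignments of libraries. The overlap steps were tested on simulated data. The labels call the replicates biological. Read numbers are not part of a peak list. Library depth, and with it the precision of a fold enrichment, is therefore unknown.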

Additional observations from a re-analysis of the deposited data

How the results depend on the processing

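The active-minus-inactive difference in bases under peaks kept its direction in all 13 alternatives, with 11.4 to 18.6 kb when each library was left out in turn. Pairing by replicate number is among the 13 but changes only the test, so it could not turn the direction. The difference in genes with a peak, in the whole window and after the TES, was 1.17 to 3.17 without each library in turn and -2 with the 1163 strongest peaks of each list. The promoter difference was 0 at equal number, at a -log10 p-value of at least 6, at a -log10 q-value of at least 2 and in replicates 1 and 2 alone, 1.33 with only the outermost starts, chosen after seeing the data, and 0 to 2.5 without each library in turn, where active replicate 3 gave the 0. Genes with a peak in all 6 lists numbered 3 to 5 without each library in turn, 5 without inactive replicate 2, and 2 at equal number and at both stricter limits. Genes with a peak in the 3 active lists but no inactive one numbered 0 to 1, with 1 without active replicate 2. The cause was not tested. With the replicate number as a replicate block, by exact sign changes over the 3 pairs, the difference was 14.4 kb (p = 0.25, the smallest possible). The series describes matched aliquots and the peak names of same-numbered libraries match, while their deviations over 9426 genes had r = 0.046, -0.158 and -0.120. Active and inactive libraries of unlike number had r from -0.140 to 0.253. With or without the replicate block no p could fall under 0.05, so the block could not change a call. Depth is unknown, and a peak missing from a short list is no measure of absent signal.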
